A study of Mus musculus with 8 samples.

Results

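The mitochondrial genome transcripts are the 37 genes of the deposited expression table, of 37620 in all, whose symbol starts with mt-. They are 13 mRNAs, 2 rRNAs and 22 tRNAs, and they were measured in 8 single mouse oocytes at the MII stage, the metaphase arrest of meiosis II at which the egg awaits fertilization. Of these genes, 28 are annotated on the plus strand and 9 on the minus strand, namely mt-Nd6 and 8 tRNAs. All oocytes were of the C57BL/6 strain and carried floxed Hira alleles. The product of Hira is a chaperone that loads histone H3.3 into chromatin independently of DNA synthesis. The 4 oocytes with the genotype label Hira f/f alone are called WT and have the numbers 1, 2, 4 and 5. The 4 Hira f/f Gdf9-Cre+ oocytes are called KO and have the numbers 1, 3, 5 and 6. Gdf9-Cre is a recombinase transgene whose promoter is active in growing oocytes, so the deletion is made in the oocyte itself. The titles of all 8 samples carry the Gdf9-Cre+ tag, so the grouping rests on what genotype and description say. The labels name no female and no age, so each genotype counts as 1 sample. No test was made between genotypes, and the SDs describe spread between oocytes.

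The mammalian mitochondrial genome is a small circle transcribed on both strands into long precursor RNAs. On the heavy-strand transcript, tRNAs sit between most of the mRNAs and rRNAs, and cutting the tRNAs out releases the other RNAs. The mRNAs encode subunits of complexes I, III, IV and V of the respiratory chain and the ATP synthase, the rRNAs build the mitochondrial ribosome, and mt-Nd6 is the only mRNA of the opposite strand. Oocytes hold very many mitochondrial genomes, all passed on through the mother.

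Libraries held between 38032455 and 50208686 reads, and 75.0% to 86.2% of them fell in listed genes, a lower part in every KO oocyte (75.0% to 80.3%) than in every WT oocyte (84.3% to 86.2%). Levels are given in FPKM, the number of fragments in a gene divided by gene length and library size, as the authors deposited them. Whole reads were recovered from them. Hira itself had 42, 0, 96 and 1 reads in WT oocytes 1, 2, 4 and 5, and 0, 2, 0 and 2 in KO oocytes 1, 3, 5 and 6. It was therefore too low in these libraries to check every label. Mpv17l, chosen after its values were seen, lay between 9.44 and 25.9 FPKM in WT and between 250.3 and 555 in KO, with all 4 KO oocytes above all WT oocytes. All 9 oocyte markers were detected in every library, and their summed FPKM was 15376 to 20503 in WT and 8818 to 11217 in KO. Dppa3 was most of this sum in every library. Zp1, Zp3, Gdf9, Mos and Nlrp5 overlapped between the genotypes, and the other oocyte markers did not. The 13 cumulus and granulosa markers summed to 18.04 to 30.2 FPKM in WT and 15.0 to 37.1 in KO. Among them Inha, Foxl2 and Amh were at 0 in all oocytes, and 10 of the 13 stayed under 1 FPKM throughout. The others were Cyp19a1, at 7.70 to 29.9 FPKM and most of the sum in every library, Nr5a2, at 0.356 to 6.49 with its highest value in KO oocyte 1, and Kitl, at 0.0278 to 3.55. The part that these differences between libraries have in the results below was not tested.

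Several ends of the mitochondrial mRNAs lack a full stop codon in the DNA, and the poly(A) tail completes it. This matters for the assay, since the SMARTer kit primes cDNA with oligo-dT. Of the 13 mRNAs, 10 end in a complete stop codon as annotated and 3 end in a lone T. The last 24 bases of these 3, of mt-Co1 and mt-Co2 as plus-strand genes with a full stop codon, and of mt-Nd6 are printed with the stop codon, or the part of it present, in capitals. They come from the GENCODE M21 transcripts on GRCm38 and read 5′ to 3′ on the strand of each gene.
mt-Co3, chrM:8607-9390, plus strand: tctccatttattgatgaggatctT
mt-Nd4, chrM:10167-11544, plus strand: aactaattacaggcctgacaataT
mt-Cytb, chrM:14145-15288, plus strand: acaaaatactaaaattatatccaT
mt-Co1, chrM:5328-6872, plus strand: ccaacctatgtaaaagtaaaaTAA
mt-Co2, chrM:7013-7696, plus strand: aactgatctgcttcaataattTAA
mt-Nd6, chrM:13552-14070, minus strand: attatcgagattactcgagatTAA

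Mitochondrial genes held 2.91%, 3.87%, 4.37% and 3.16% of all reads in listed genes in WT oocytes 1, 2, 4 and 5. They held 3.52%, 0.908%, 1.34% and 1.83% in KO oocytes 1, 3, 5 and 6. KO oocyte 1 lay among the WT oocytes, and the other KO oocytes lay below all of them. Split by class, the pattern was that of the mRNAs. They took 2.71% to 3.99% of gene reads in WT, 3.08% in KO oocyte 1 and 0.652% to 1.47% in the other KO oocytes. The rRNAs took 0.194%, 0.332%, 0.377% and 0.285% in WT and 0.440%, 0.254%, 0.426% and 0.352% in KO. Their ranges overlapped, and no KO oocyte fell below the lowest WT oocyte. Because all levels are relative within a library, less mitochondrial mRNA per oocyte and more RNA of other genes cannot be told apart.

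The balance of the classes differed in every KO oocyte from every WT oocyte. WT oocytes held 14.0, 10.6, 10.6 and 10.1 mitochondrial mRNA reads per mitochondrial rRNA read, a mean of 11.3 ± 1.81 (SD, n = 4). KO oocytes held 7.01, 2.56, 2.14 and 4.18, a mean of 3.97 ± 2.21 (SD, n = 4). The groups did not overlap, and KO oocyte 1, whose total mitochondrial share was like WT, had the highest ratio of the KO oocytes and a lower one than any WT oocyte. As a share of mitochondrial reads, the rRNAs made up 6.66%, 8.59%, 8.64% and 9.04% in WT. In KO they made up 12.48%, 28.0%, 31.8% and 19.3%. The KO oocytes spread from 12.48% to 31.8%, wider than the gap from the highest WT to the lowest KO oocyte.

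**Figure D1:**
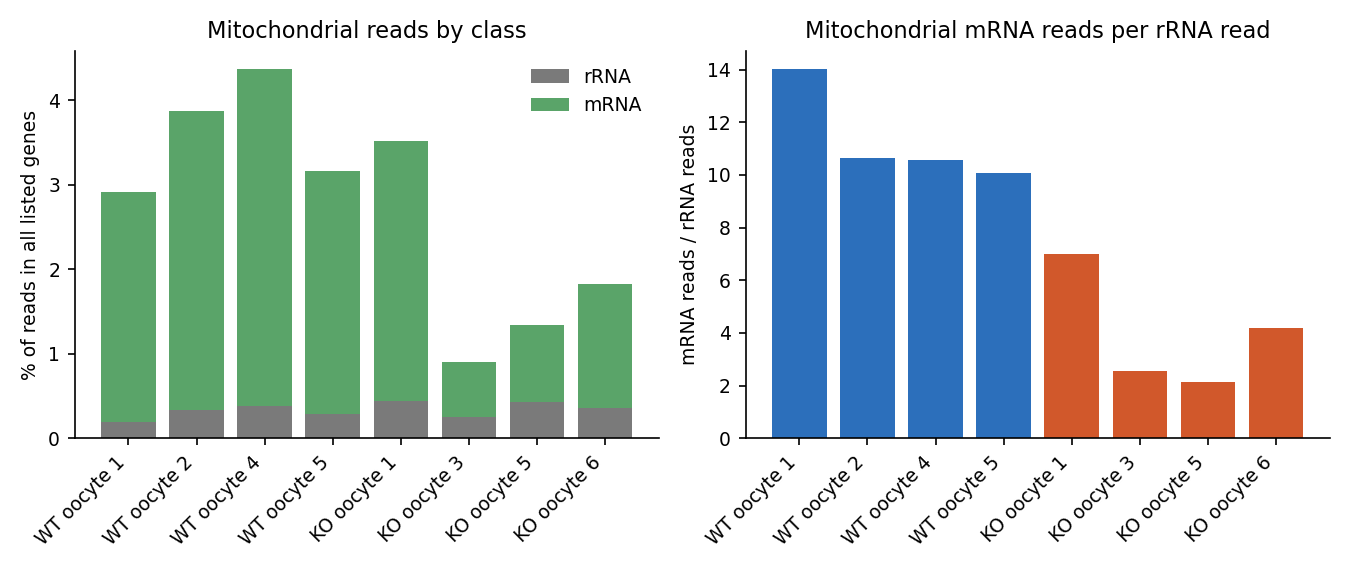
The left panel stacks the mitochondrial rRNA and mRNA reads of each oocyte as a percentage of reads in all listed genes (tRNA reads are too few to draw), and the right panel gives mRNA reads divided by rRNA reads. The mRNA part of KO oocytes 3, 5 and 6 is below that of all other oocytes, while the ratio lies between 10.1 and 14.0 in WT and between 2.14 and 7.01 in KO.

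Of the 13 mRNAs, 12 were compared, since they reached 1 FPKM in 4 or more of the 8 oocytes. The exception was mt-Nd4l, described further on. All 12 had a lower mean in KO, and 9 were at least 2-fold lower, against 6.84% of all 7833 compared genes. Without KO oocyte 1, which was left out after its values had been seen, 12 of 12 were at least 2-fold lower, against 8.08% of all compared genes. The median difference of the 13 mRNAs, KO minus WT on the log2(FPKM + 1) scale, was -1.61, and it was -2.06 without KO oocyte 1. Over all compared genes that median was 0.10 and 0.12. KO oocytes 3, 5 and 6 lay below every WT oocyte for all 12, a pattern that 9.63% of all compared genes showed. All 4 KO oocytes lay below every WT oocyte for 5 of the 12 (mt-Nd2, mt-Nd4, mt-Cytb, mt-Atp6 and mt-Atp8), against 7.37%. The 12 come from shared precursor RNAs of 1 genome, so they are not 12 separate observations. In each of the 12, the KO oocytes had the same order, with oocyte 3 lowest, then 5, 6 and 1.

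**Figure D2:**
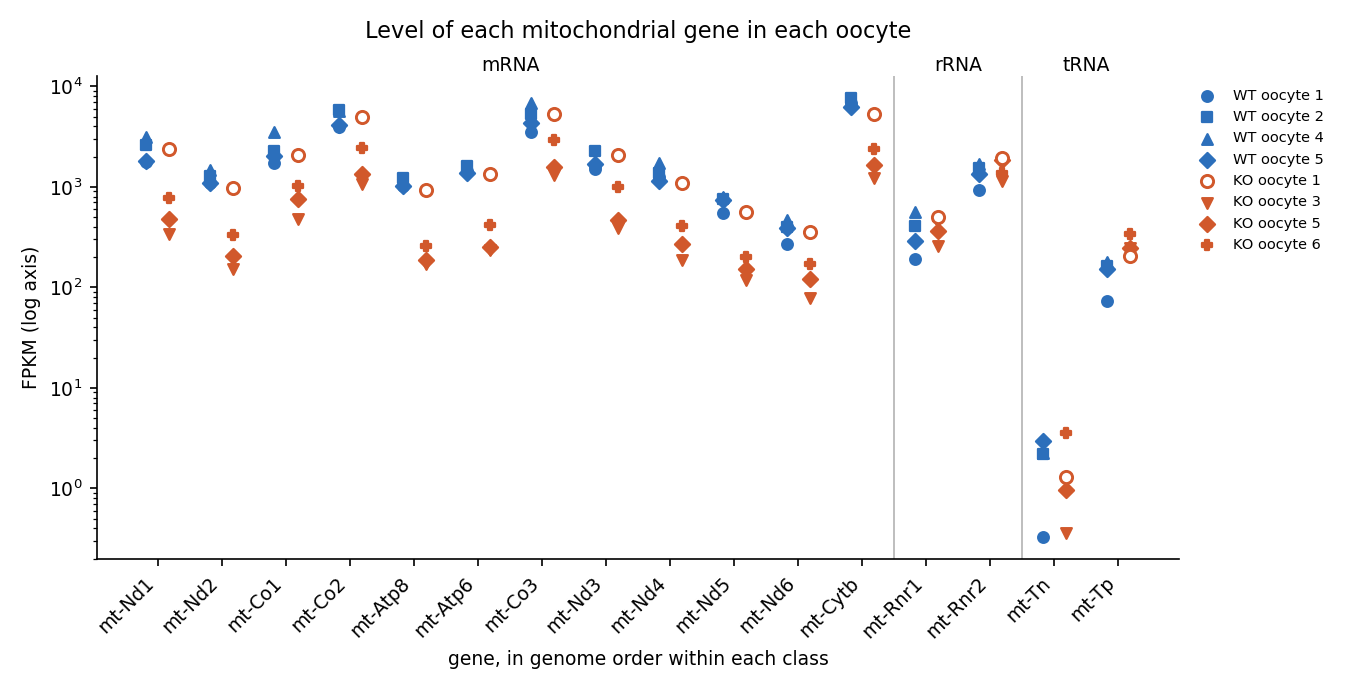
FPKM of the 16 compared mitochondrial genes (log axis), with 1 symbol per oocyte, WT in blue and KO in orange, and KO oocyte 1 as an open circle. For the mRNAs the filled KO symbols lie below all WT symbols. The open circle lies below all WT symbols for 5 mRNAs and within the WT range for the others. For both rRNAs the groups overlap, and for mt-Tp all KO symbols are above WT.

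Complex I, the NADH dehydrogenase that passes electrons to ubiquinone, has 7 subunits encoded here. In FPKM, and in the order WT oocytes 1, 2, 4 and 5, mt-Nd1 (ENSMUSG00000064341, chrM:2751-3707) stood at 1757, 2600.3, 3115 and 1803. In KO oocytes 1, 3, 5 and 6, the order kept from here on, it stood at 2361, 336, 475 and 780.3. KO oocyte 1 was inside the WT range, and the mean was 2.35-fold lower in KO, or 4.37-fold without KO oocyte 1.

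The gene mt-Nd2 (ENSMUSG00000064345, chrM:3914-4951), of the membrane arm of the complex, had 1099, 1294, 1456 and 1091 FPKM in WT and 969.8, 154, 205 and 331 in KO. Every KO oocyte was below every WT oocyte. Its mean was 2.98-fold lower in KO, the largest fold among the 12, and 5.37-fold without KO oocyte 1. For mt-Nd3 (ENSMUSG00000064360, chrM:9459-9806), a small subunit at the joint of the arms, levels were 1493, 2271, 1762 and 1682 in WT and 2061, 385, 473 and 1004 in KO. Here the fold was 1.84, and 2.90 without KO oocyte 1, which lay within the WT range.

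Levels of mt-Nd4 (ENSMUSG00000064363), a membrane subunit of the proton-pumping arm, were 1245, 1378, 1713 and 1153 FPKM in WT and 1099, 188, 269 and 409.8 in KO. All KO oocytes were below WT, by 2.79-fold in the mean and by 4.75-fold without KO oocyte 1. Those of mt-Nd5 (ENSMUSG00000064367, chrM:11742-13565), another subunit of this arm, were 547, 750.4, 787 and 739.7 in WT and 564, 117, 154 and 199 in KO. The fold of mt-Nd5 was 2.73, and 4.50 without KO oocyte 1, which lay just above the lowest WT oocyte.

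The gene of complex III, mt-Cytb (ENSMUSG00000064370), encodes cytochrome b, which passes electrons from ubiquinol on towards cytochrome c. It had 6905, 7715, 7407 and 6264 FPKM in WT, and 5300.0, 1230.0, 1667 and 2374 in KO. All KO oocytes were below all WT oocytes, by 2.68-fold in the mean and by 4.03-fold without KO oocyte 1. It was the highest mitochondrial mRNA in every WT oocyte. Ranked by FPKM among all genes of the table it was 3rd, 2nd, 3rd and 3rd in WT, and 4th, 33rd, 18th and 14th in KO.

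Complex IV, cytochrome c oxidase, passes electrons to oxygen, and mt-Co1, mt-Co2 and mt-Co3 encode its core. WT oocytes had 1709, 2281, 3539 and 2015 FPKM of mt-Co1 (ENSMUSG00000064351) and KO oocytes 2093, 484, 754 and 1023, with the mean 2.19-fold lower, or 3.17-fold without KO oocyte 1. For mt-Co2 (ENSMUSG00000064354) the values were 3972, 5787, 5664 and 4102 in WT and 5003, 1057, 1335 and 2444 in KO, 1.98-fold lower, or by 3.03-fold if KO oocyte 1 is left out. The 3 genes had KO oocyte 1 inside the WT range and the other KO oocytes below it.

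Levels of mt-Co3 (ENSMUSG00000064358) were 3502, 5265, 6898 and 4342 FPKM in WT and 5309.9, 1315, 1568 and 2899 in KO. Its fold of 1.80, or 2.59 without KO oocyte 1, was the smallest among the 12. It was the highest mitochondrial mRNA in KO oocytes 1, 3 and 6, and mt-Cytb in KO oocyte 5. The least distance between WT and KO oocytes 3, 5 and 6 was also in mt-Co3, where the lowest WT value was 1.21-fold the highest of those KO values. The widest was 3.94-fold, in mt-Atp8.

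Complex V is the ATP synthase, and its mitochondrially encoded subunits overlap by 43 bases on the same strand, with the start of mt-Atp6 inside the end of mt-Atp8. The shared stretch is shown because reads within it fit both genes.
mt-Atp8 and mt-Atp6 overlap, chrM:7927-7969, plus strand: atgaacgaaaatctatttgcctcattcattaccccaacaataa
The sources used here do not give the authors' treatment of such reads. In WT, mt-Atp8 (ENSMUSG00000064356, chrM:7766-7969) had 1009.7, 1239.5, 1154 and 1018 FPKM, and in KO 932, 172, 187 and 257. For mt-Atp6 (ENSMUSG00000064357, chrM:7927-8607), which forms the proton channel, levels were 1424, 1621, 1595 and 1363 in WT and 1355, 237, 255 and 417 in KO. Both had every KO oocyte below every WT oocyte, with mt-Atp6 of KO oocyte 1 close under the lowest WT value. The folds were 2.86 and 2.65, and 5.39 and 4.96 without KO oocyte 1. The level of mt-Atp8 was 70.9%, 76.5%, 72.4% and 74.7% of that of mt-Atp6 in WT and 68.8%, 72.8%, 73.3% and 61.5% in KO. The pair thus kept much the same ratio in 7 of the oocytes, with KO oocyte 6 lowest.

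**Figure D3:**
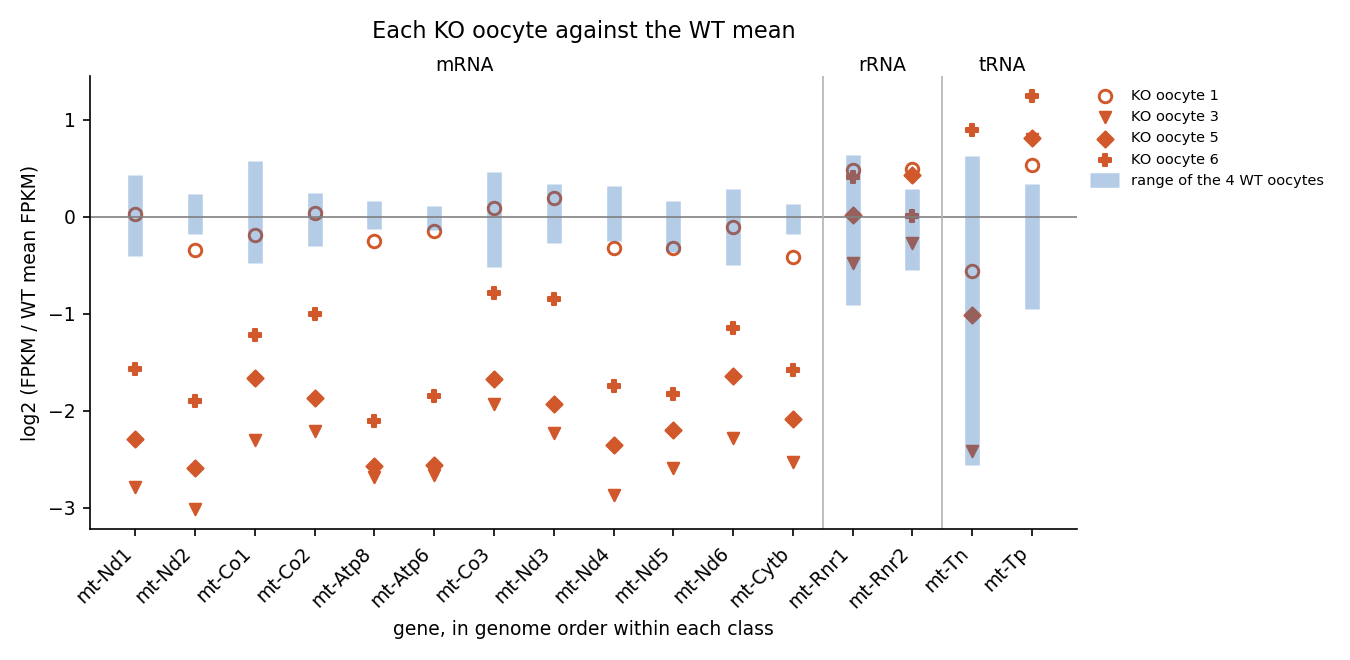
Log2 of FPKM in each KO oocyte over the WT mean for the 16 compared genes, in genome order within each class, with the blue bars spanning the 4 WT oocytes. KO oocytes 3, 5 and 6 lie below the bars for all 12 mRNAs, from -3.01 to -0.79, while the rRNA values of the KO oocytes lie within -0.48 to 0.49 and all those of mt-Tp are above the bar.

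The mRNAs did not all differ by the same amount, which shows in their shares of mitochondrial mRNA reads. These shares are independent of library size and of the total. Complex I genes took 26.5%, 27.1%, 27.1% and 27.2% of mRNA reads in WT, 27.2% in KO oocyte 1 and 21.6%, 22.2% and 22.3% in KO oocytes 3, 5 and 6. KO oocyte 1 was like WT in this share as well. Complex IV genes took 34.7%, 38.8%, 43.8% and 38.5% in WT and 43.8%, 47.8%, 47.4% and 50.1% in KO. The means were 39.0% ± 3.74 and 47.3% ± 2.60 (SD, n = 4 each), and KO oocyte 1 and WT oocyte 4 were level. For complex III the shares were 29.5% ± 3.53 in WT and 25.8% ± 1.48 in KO, with overlap. For complex V they were 4.55% ± 0.464 and 3.58% ± 0.699, also with overlap.

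By gene, mt-Co3 made up 11.7% to 16.1% of mitochondrial mRNA reads in WT and 16.8% to 20.6% in KO, with no overlap. Without overlap in the other direction, mt-Nd2 made up 4.49% to 4.88% in WT and 3.05% to 4.07% in KO. The shares of mt-Nd4, 6.35% to 7.34% in WT and 4.94% to 6.13% in KO, also did not overlap, nor did those of mt-Nd5, 4.26% to 5.57% and 3.29% to 4.16%. In these 4 genes KO oocyte 1 was the KO oocyte closest to WT. Shares of 1 total depend on each other, so a higher share of mt-Co3 goes with lower shares elsewhere. On the log2(FPKM + 1) scale the SD of the difference among the 12 mRNAs was 0.31, and the differences ran from -1.95 for mt-Nd2 to -1.03 for mt-Co3.

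**Figure D4:**
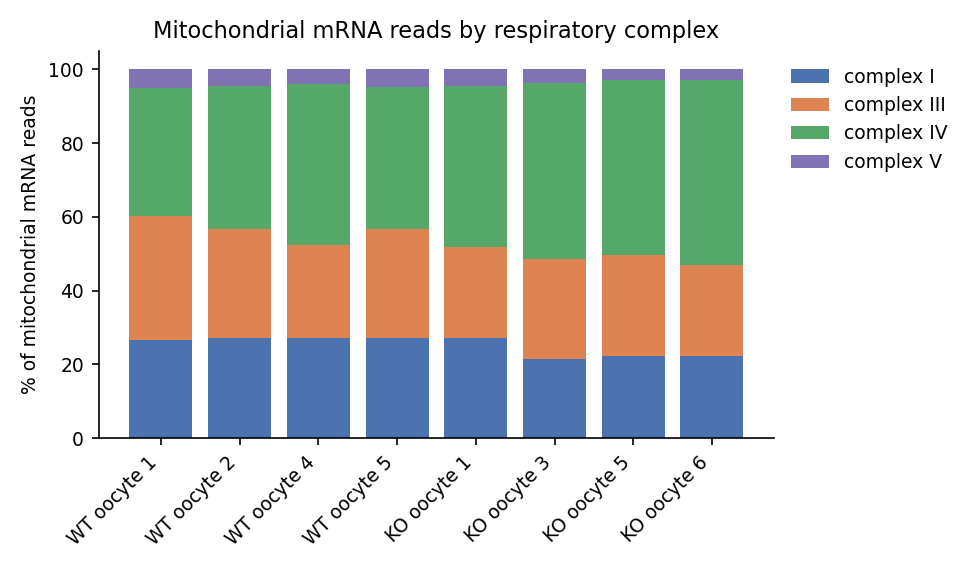
Share of mitochondrial mRNA reads, in percent, by the respiratory complex that the mRNAs serve, in each oocyte. Complex I takes 26.5% to 27.2% in the WT oocytes and KO oocyte 1 and 21.6% to 22.3% in the other KO oocytes, and complex IV takes 34.7% to 43.8% in WT and 43.8% to 50.1% in KO.

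The rRNAs of the mitochondrial ribosome gave another picture. The 12S rRNA gene mt-Rnr1 (ENSMUSG00000064337, chrM:70-1024), of the small subunit, had 192, 408, 561 and 289 FPKM in WT and 505, 260.5, 366 and 482 in KO. All KO values were inside the WT range, and the mean was 1.11-fold higher in KO. The 16S rRNA gene mt-Rnr2 (ENSMUSG00000064339, chrM:1094-2675), of the large subunit, had 938, 1529, 1675 and 1346 in WT and 1924, 1133, 1842 and 1379 in KO. KO oocytes 1 and 5 were above all WT oocytes and the others within their range, and the mean was 1.14-fold higher in KO. The median log2 difference of the pair, 0.20, became -0.01 without WT oocyte 1, so no direction is given for them. Per length, mt-Rnr2 stood at 4.88, 3.75, 2.98 and 4.66 times mt-Rnr1 in WT and 3.81, 4.35, 5.04 and 2.86 times in KO, with full overlap.

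The rRNAs and mt-Nd1 lie next to each other on the plus strand, with a tRNA gene between mt-Rnr2 and mt-Nd1. Per length, mt-Nd1 stood at 1.87, 1.70, 1.86 and 1.34 times mt-Rnr2 in WT. In KO it stood at 1.23, 0.297, 0.258 and 0.566 times. The groups did not overlap, and in KO oocytes 3, 5 and 6 the mRNA was below the rRNA beside it. Ranked among all genes, mt-Rnr2 was 53rd, 32nd, 29th and 39th in WT and 20th, 40th, 16th and 24th in KO. Mitochondrial rRNAs carry short A tails, and how far oligo-dT priming copied them from such tails or from A runs inside the RNA cannot be told apart here. The longest A run is 5 bases in mt-Rnr1 and 7 in mt-Rnr2, and 4 to 8 in the plus-strand mRNAs.

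On the minus strand, mt-Nd6 (ENSMUSG00000064368), a complex I subunit, had 271, 399.7, 466 and 389 FPKM in WT and 355, 78.8, 122 and 173 in KO. KO oocyte 1 was again within the WT range and the others below it, with a fold of 2.09, or 3.06 without KO oocyte 1. It was the lowest mRNA after mt-Nd4l in all 8 oocytes. As a share of the median FPKM of the other 12 mRNAs it stood at 18.6%, 20.5%, 26.8% and 25.6% in WT and 20.8%, 27.5%, 32.9% and 28.8% in KO. The groups overlapped through KO oocyte 1. In human cells the ND6 mRNA is known to lack a poly(A) tail, and whether this applies to the mouse oocyte was not measured. The sequence differs from that of the plus-strand mRNAs in a way that follows from its strand, with 28.1% G and 43.7% T against medians of 11.0% G and 29.4% T for the 12 plus-strand mRNAs.

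Against its neighbour mt-Nd5, which lies on the opposite strand, mt-Nd6 stood at 49.6%, 53.3%, 59.3% and 52.6% per length in WT and 63.0%, 67.1%, 79.3% and 86.6% in KO. All KO oocytes were above all WT oocytes. The 3′ ends of these genes overlap by 14 bases, shown because reads over it, in a library with no known strand, could belong to either gene.
mt-Nd5 and mt-Nd6 overlap, chrM:13552-13565, written on the plus strand: ttaatctcgagtaa
The sources used here do not say whether counting used strand. Reads of mt-Nd6 and of plus-strand RNA across its locus therefore cannot be told apart, and the values of the minus strand are those of genes annotated there, not of RNA known to come from it.

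Summed over all genes, the minus strand held 0.582%, 0.668%, 0.689% and 0.798% of mitochondrial reads in WT and 0.702%, 0.790%, 0.782% and 0.820% in KO. The groups overlapped. Per kilobase of annotated gene, the plus strand had 12.7, 11.0, 10.7 and 9.24 times the reads of the minus strand in WT, and 10.5, 9.34, 9.43 and 8.98 times in KO. In KO oocytes 3, 5 and 6 the summed reads of both strands were lower, though not those of each gene, since the rRNAs and mt-Tp were not. Plus-strand genes held 0.901% to 1.81% of gene reads against 2.89% to 4.34% in WT, and minus-strand genes 0.00717% to 0.0150% against 0.0169% to 0.0301%. Summed FPKM of the minus strand, in which the short mt-Tp weighs more, overlapped, at 345 to 649 in WT and 328 to 513 in those KO oocytes.

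The tRNAs were nearly silent in these libraries. No read fell in 19 of the 22 in any oocyte, and 3 reads of a library, the limit that a count of 0 allows, correspond to 0.797 to 1.34 FPKM for a tRNA gene, depending on its length and the library. The limit covers counting error only, since PCR copies of 1 molecule give several reads. It also assumes that reads over a tRNA gene were counted for it. How the authors counted reads that reach into a neighbouring gene is not known, so a count of 0 may not limit the RNA. Mature tRNAs are short, structured and end in CCA, and an oligo-dT primed library of sonicated cDNA is not made to capture them. The 3 tRNA genes with reads were mt-Tp, mt-Tn and mt-Tc, for proline, asparagine and cysteine, all annotated on the minus strand. Their sequences are printed because they carry all tRNA reads, and no part is in capitals.
mt-Tp, chrM:15356-15422, minus strand: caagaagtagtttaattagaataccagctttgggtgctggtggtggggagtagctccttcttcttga
mt-Tn, chrM:5089-5159, minus strand: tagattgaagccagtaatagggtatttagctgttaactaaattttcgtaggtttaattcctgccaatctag
mt-Tc, chrM:5192-5257, minus strand: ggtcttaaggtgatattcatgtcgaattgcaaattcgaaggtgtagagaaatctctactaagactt

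Nearly all tRNA reads, 4758, were in mt-Tp (ENSMUSG00000064372). It had 74.0, 165, 180.4 and 151 FPKM in WT and 206, 249, 249 and 337 in KO. Every KO oocyte, oocyte 1 included, was above every WT oocyte, which held for 13.4% of all compared genes. The mean was 143 ± 47.3 in WT and 260.1 ± 54.9 in KO (SD, n = 4 each), 1.82-fold higher in KO. It was below the 2-fold limit that 18.3% of compared genes passed in this direction, and no compared mitochondrial gene passed it. The log2 difference was 0.92, and it was 1.02 without KO oocyte 1.

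Among all genes mt-Tp ranked 649th, 276th, 255th and 325th in WT and 226th, 181st, 176th and 126th in KO. Set against mt-Cytb, the mRNA nearest to it on the chromosome, mt-Tp stood at 1.07%, 2.14%, 2.44% and 2.41% per length in WT. In KO it stood at 3.88%, 20.2%, 15.0% and 14.2%. All KO oocytes were above all WT oocytes, and KO oocyte 1 lay between the WT and the other KO oocytes. That separation is no further result. It follows from mt-Tp being above, and mt-Cytb below, every WT oocyte in each KO oocyte. The gene mt-Tp is the last annotated gene before the noncoding control region, from which transcription of both strands starts. With no strand known, its reads may be of tRNA precursor or of other RNA across the locus, and these cannot be told apart.

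The other tRNA genes were near the limit of detection. Over all oocytes mt-Tn (ENSMUSG00000064348) had 44 reads, 24 in WT (95% exact Poisson interval 15.4 to 35.7) and 20 in KO (12.2 to 30.9). Its FPKM was 0.326, 2.18, 2.24 and 2.96 in WT and 1.30, 0.361, 0.957 and 3.57 in KO, with full overlap. For mt-Tc (ENSMUSG00000064349) the total was 4 reads, 1 in WT oocyte 5, 2 in KO oocyte 5 and 1 in KO oocyte 6. A stretch of 32 bases with no annotated gene, where replication of the light strand starts, lies between mt-Tn and mt-Tc. The 3 tRNA genes with reads were the ones that border a longer unannotated stretch in the reference as written, this one or the control region. The 19 silent ones had at most 3 unannotated bases before them and 5 after, except that mt-Tf starts at the first base of the reference and borders the control region on the circle.

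The thirteenth mRNA, mt-Nd4l (ENSMUSG00000065947, chrM:9877-10173), for a small complex I subunit, had 3 reads in all, 1 each in WT oocytes 4 and 5 and KO oocyte 1. It is cut from the precursor together with mt-Nd4, whose total was 457715 reads, and overlaps it by 7 bases. A nuclear copy of it, Gm10222, is identical over 294 of its bases, 99.0% of its length, and had 1738 reads. In FPKM, Gm10222 had 21.6, 21.2, 16.9 and 25.1 in WT and 23.99, 3.28, 7.40 and 14.0 in KO. It was in the WT range in KO oocyte 1 and, like the 12 compared mRNAs, below all WT oocytes in KO oocytes 3, 5 and 6. The level of mt-Nd4l is therefore uncertain, as the sources used here do not give the authors' rule for reads that match several places.

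Copies of at least 90% identity, as nuclear genomes often hold, were found among the GENCODE M21 transcripts for 14 of the 37 genes, 12 of them mRNAs. Of the 18 copies, 9 were in the table. Gm13340, 97.6% identical to mt-Co1 over its whole length, had 146 reads against 961842 for mt-Co1. Gm13341, 95.9% identical to mt-Co2, had 215 reads against 893451. The other mRNA copies in the table, apart from Gm10222, had 0 to 20 reads. Of the copies not in the table, Gm28661 (mt-Co2), Gm28437 (mt-Co3) and Gm10925 (mt-Atp6) were 100% identical over 99.6%, 99.9% and 99.6% of the gene. Gm28438 (mt-Nd3) was 99.7% identical over 99.1%, Gm28439 (mt-Nd4) 100% over 63.6% and Gm29216 (mt-Co1) 99.8% over 31.3%. How reads that also match these copies were counted is not known, so the levels of these 6 mRNAs share that uncertainty. Cep295, a centriole gene with a stretch that aligns to mt-Tn at 91.5% identity and another to mt-Tl1 at 93.5%, had 16298 reads over the whole gene, and how many of them lay in those stretches is not known.

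The levels of the mRNAs in WT were also set against base composition and place. Over the 12 mRNAs, mean log2(FPKM + 1) in WT and GC content had a Pearson r of 0.65 and a Spearman rho of 0.75. Distance from the start of the reference had -0.17 and -0.14. The mRNA left out, mt-Nd4l, had the highest GC content of all mitochondrial mRNAs, 41.1%, and a WT mean of 0.0389 FPKM. It thus goes against the relation with GC content, though its level is uncertain. For the difference without KO oocyte 1 the correlations were 0.21 and 0.29 with this distance, -0.14 and -0.16 with length, and 0.34 and 0.30 with GC content. These are descriptions across genes, which share libraries and precursor RNAs, and they carry no p.

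Nuclear genes for mitochondrial transcription and RNA upkeep were followed as a list of 34, of which 20 were compared. Their median log2 difference was -0.26, and -0.24 without KO oocyte 1, against 0.10 and 0.12 over all compared genes. At least 2-fold lower in KO were 2 of the 20, close to the 6.84% of all compared genes, and at least 2-fold higher 1, below their 18.3%. All KO oocytes lay below all WT oocytes for 4 of the 20, against 7.37% of all compared genes. They lay above all WT oocytes for 1, against 13.4%. The poly(A) polymerase of mitochondria, Mtpap, had 60.8 ± 7.06 FPKM in WT and 44.6 ± 10.4 in KO (SD, n = 4 each), with overlap. Rexo2, an exonuclease that degrades short RNAs, had 62.9 ± 9.02 and 36.99 ± 8.73, and all KO oocytes were below all WT oocytes. Supv3l1, the helicase that works with the mitochondrial degradosome, had 14.2 ± 2.13 and 11.6 ± 1.05, also without overlap.

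Fastkd1, of a family of mitochondrial RNA-binding proteins, had 16.2 ± 3.30 FPKM in WT against 8.03 ± 3.07 in KO, without overlap. Its mean was 2.02-fold lower in KO. These 4 genes were the highest of the list by mean level. The other 2 past the limit are named after their values were seen. Ssbp1, the single-stranded DNA-binding protein of mitochondrial DNA replication, was 3.97-fold lower, from 2.20 ± 0.508 to 0.554 ± 0.363 FPKM, without overlap. Its WT values alone met the limit for comparison, and all KO oocytes but oocyte 1 lay under 1 FPKM. The fold of Ssbp1 thus rests on values near that limit, and the counts of lower genes above include it. Polg2, the accessory subunit of the mitochondrial DNA polymerase, was 6.80-fold higher, from 1.54 ± 0.205 to 10.4 ± 4.06 FPKM, also without overlap. For Polg2, KO oocyte 1 was at 7.27 FPKM and the others at 8.40, 16.3 and 9.72, so KO oocyte 1 did not stand with WT there. Polrmt, the RNA polymerase of mitochondria, was at 0.0255 to 0.956 FPKM in WT and 0.0592 to 1.24 in KO. It did not reach the limit for comparison. Most genes of the list that were not compared had a higher mean in KO. The counts and the median difference of the list leave them out. By mean FPKM, Hsd17b10 went from 0.0852 in WT to 2.78 in KO, Lrpprc from 0.350 to 2.01 and Tfam from 0.402 to 1.61. Polrmt, Twnk, Polg, Pde12, Ptcd1 and Ptcd2 were also at least 2-fold higher, all from WT means under 1 FPKM. Fastk and Fastkd5 had a lower mean in KO. These genes are named after their values were seen.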

How the data were processed

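Single MII oocytes were made into cDNA with the SMARTer kit and sequenced on an Illumina instrument, per the labels' protocols. The authors deposited FPKM in 1 table of 37620 genes. The build mm9 and the tools TopHat2 2.0.2, Bowtie 0.12.8, Bowtie2, edgeR 3.1.10 and HTSeq are named, with no role, per the submitters' processing notes. ERCC spike-in RNA was added, per the labels' protocols, but no spike-in values were used here.

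Library totals and whole reads were recovered from FPKM steps with GENCODE M21 exon lengths. All 18 mitochondrial genes with reads came out whole within 0.001 reads, and recovery was tested on simulated data. Symbols matched 32897 identifiers. Coordinates, strands and sequences are of GENCODE M21 on GRCm38, and none was carried over from mm9. Compared genes had FPKM of at least 1 in at least 4 oocytes (7833 genes). Folds are ratios of mean FPKM, with a limit of 2, and differences are of log2(FPKM + 1), with a pseudocount of 1 that understates changes of low genes. Per-length comparisons between genes use FPKM.

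The genes and lists were chosen with earlier results of these data known. Named are all compared mitochondrial genes, all mRNAs and rRNAs, all tRNAs with reads, and up to 4 of the RNA upkeep list with the highest mean FPKM. Ssbp1, Polg2, Polrmt and the other named genes of that list that were not compared are outside this rule. Each genotype is 1 sample, so no test was made. Alternatives covered each oocyte left out, a replicate block, scaling, pseudocounts, filters and overlapping genes. Copies were sought with BLAST+ 2.17.0. Python 3.11.15, NumPy 2.4.6, pandas 2.3.3 and matplotlib 3.10.9 were used.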

Additional observations from a re-analysis of the deposited data

Results flagged for a closer look

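In KO, 1 oocyte stood far from the other 3 for both complex V genes. The FPKM of mt-Atp8 was 932 in KO oocyte 1 and 172 to 257 in the other KO oocytes, and that of mt-Atp6 was 1355 against 237 to 417. These genes overlap, and how reads in the overlap were counted is not known. Of 44 groups of 4 oocytes examined, these 2 were singled out by the gap between the highest value and the next, and chance singles out about 1 in 20 groups.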

How the results depend on the processing

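Of 345 alternatives over 28 results, 330 left the value within its spread between oocytes, or a count within 1.5 times, and 3 turned its direction. Only oocytes 1 and 5 share numbers across genotypes. The correlation of deviations within these pairs was 0.03 and 0.07, against -0.087 to 0.103 between oocytes of different numbers. These pairs are too few to show whether a shared number means a shared origin. The replicate block keeps only oocytes 1 and 5 of each genotype, leaves out the others, and so gives KO oocyte 1 more weight. With it the mitochondrial share differed by -0.602 percentage points instead of -1.68 (-2.22 to -1.35 with an oocyte left out). The median of the mRNAs was -0.75 instead of -1.61 (-2.06 to -1.23), and the mRNAs at least 2-fold lower were 0 instead of 9 (6 to 12) by ratios of means, while 6 instead of 12 lay beyond -1 on the log2 scale. With the block, mt-Co1 was at -0.56 instead of -1.29, mt-Rnr1 at 0.86, mt-Rnr2 at 0.74 and the rRNA median at 0.80 instead of 0.20 (-0.0149 to 0.38). Without WT oocyte 1 that median was -0.0149 and mt-Rnr1 -0.0520 (highest 0.46), and without KO oocyte 3 mt-Tn was 0.0149 (lowest -0.58). As shares of summed FPKM the tRNAs were 1.34% of mitochondrial signal instead of 0.0919%, and minus-strand genes 2.53% instead of 0.729%, as short genes weigh more per length. The log2 ratio of mt-Nd6 to the other mRNAs, -2.01, was -2.55 without overlapping mRNAs, -2.61 against their mean and -3.17 against mt-Nd5 and mt-Cytb. The mRNA to rRNA ratio kept its direction, at -1.66 on the log2 scale (-1.98 to -1.41, and -1.62 with the block), as did mt-Tp, at 0.92 (0.63 to 1.05, and 1.09 with the block). Rescaling to reads in listed genes shifted all genes by 0.12 on the log2 scale, and median-of-ratios factors by -0.12. Under these scalings 8 and 10 mRNAs were at least 2-fold lower. Alternatives for single genes, the rRNA median, the KO minus WT rRNA share and the mRNA to rRNA ratio were chosen after seeing the data.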
